A study of Mus musculus with 6 samples.

Results

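Unnamed spliced loci are transcribed regions to which the study's own transcript assembly gave no gene name and that carry at least 1 splice junction. They were taken as all loci of the merged assembly with no gene name on any line and at least 1 transcript of 2 or more exons, and 370 of 34632 loci (1.07%) met this rule. All 370 carried the assembler's code for an intergenic transcript, although 45 overlapped the span of a named locus on either strand. They made up 3.48% of the 10647 loci without a name, and the other 10277 had a single exon.

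The study asked which genes change in the mouse brainstem when *Hoxa5*, a homeobox transcription factor of the hindbrain, is inactivated after birth. RNA was sequenced from 6 libraries at postnatal day 21, each a pool of RNA from 3 whole brainstems. The 3 *Hoxa5* control libraries came from Hoxa5flox/flox;CMV-CreERT2-/- pups and the 3 *Hoxa5* cKO libraries from Hoxa5flox/flox;CMV-CreERT2+/- littermates, all homozygous for the floxed allele, of mixed background, and all treated with tamoxifen on the first days after birth. The inducible Cre was driven by the ubiquitous CMV promoter, so that recombination was not limited to the cells that express *Hoxa5*.

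An assembler such as Cufflinks joins aligned reads into transcripts without needing an annotation, and a locus stays unnamed when none of its transcripts is tied to a gene of the annotation used. Spliced loci of this kind are known to include long non-coding RNAs, which are often transcribed from the same promoter region as a coding gene but on the opposite strand, host transcripts of microRNAs, and pieces of long genes whose connecting introns were not bridged by reads. Total RNA depleted of ribosomal RNA, as used here, also holds unspliced nuclear RNA, so that an exon of the assembly can span an intron of the gene.

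Because the assembly gave these loci no name, the genes of GENCODE release M21 on GRCm38, the same genome build as mm10, were used to see what lies there. The junctions of 4 abundant loci show how the sequence reads there. In each line the bases run 5′ to 3′ over an exon-exon junction in the GENCODE transcript that shares the intron, and capitals mark the last 2 bases of the upstream exon and the first base of the next.
XLOC_025597, Lncpint, intron chr6:31219136-31220060: ttcaggtgaagaaAGGtcatggcttcatac
XLOC_000570, Gm4258, intron chr1:137898786-137930914: cagcatttgaaaaTTGctctggagtcaagg
XLOC_026245, Gm45869, intron chr6:126554796-126555225: catccccaagactGAGtgcgcccttggcat
XLOC_008132, Rasgrf2, intron chr13:92053656-92131206: gctttggacaagcAGTattacttcactgtc

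Of the 979 different introns in the 370 loci, 514 (52.5%) had the same ends and strand as a GENCODE intron. At these 514 junctions the upstream exon ended in AG in 63.4% of cases and in G in 85.4%, beside 55.1% and 80.03% over all 283898 GENCODE introns. The intron ends themselves were not analysed here.

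In 6 of the 514 junctions the exon after the intron opened with GTAAG or GTGAG, letters that usually open an intron. That was 1.17%, beside 0.389% of all GENCODE introns. Of the 6 introns, 4 were longer than 10000 bases, and the other 2 had 2422 bases (*Dchs2*, XLOC_018905) and 510 bases (*Cct6a*, XLOC_023359). Of the 31 introns over 100000 bases in the unnamed loci, only the 16 that were also in GENCODE could be read. Among these the count was 2 of 16, beside 19 of 2167 (0.877%) for GENCODE. Both of the 2 lie in *Lsamp*, which codes for a cell adhesion molecule of the limbic system. Exons with such a start are known from recursive splicing, in which a long intron is removed in steps, and whether that takes place here was not tested. The pair is shown with these 5 letters in capitals.
XLOC_011071, Lsamp, intron chr16:39984728-40262267: tcttctcattgcaagGTAAGtgaaaccaaa
XLOC_011157, Lsamp, intron chr16:40786061-40979499: caatcacaatcccagGTAAGtgtatagaga

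The libraries held 12034613 to 13202707 fragments, a fragment being 1 sequenced piece of RNA read from both ends. The locus that holds *Hoxa5*, joined in the assembly with *Hoxa6* and 2700086A05Rik, had 202, 337 and 77 fragments in control libraries 1 to 3 and 279, 57 and 63 in cKO libraries 1 to 3, so that the library labelled cKO 1 lay within the control range. The library labelled control 3, at 5.82 CPM (counts scaled to library size, per 1e+06), lay close to those labelled cKO 2 and cKO 3 (4.37 and 4.97 CPM) and below those labelled control 1 and control 2 (16.5 and 27.4 CPM). The library labelled cKO 1 had 0.2504 CPM summed over 4 Y-linked genes, where the other 5 had 84.4 to 131. Summed markers of granule neurons, a cell type of the cerebellum, were at 295 to 563 CPM in control and 115 to 146 CPM in cKO libraries, and 5 of the 7 markers were lower in cKO at an adjusted p under 0.05. Purkinje cell markers (6 of 6 lower, 493 to 766 against 259 to 321 CPM) and Bergmann glia markers (3 of 3 lower, 311 to 357 against 249 to 278 CPM) moved the same way. Each of these 2 sums came mostly from 1 gene. In control libraries *Itpr1* had 328 to 501 CPM of the Purkinje sum and *Slc1a3* 280 to 321 CPM of the Bergmann glia sum. The paper also detected *Itpr1* transcripts in nuclei of the medulla. Markers of brainstem neurons were present: *Tph2*, the enzyme of serotonin synthesis in neurons, had 498, 570 and 504 fragments in control and 690, 555 and 546 in cKO libraries, and *Slc6a5*, a glycine transporter, had 2523, 2930 and 2671 and 2870, 2611 and 3427. Neither was called (adjusted p = 0.79 and 0.85). In the lists for oligodendrocytes, astrocytes, microglia, choroid plexus, endothelium and erythrocytes no marker was called, and 1 of 3 meningeal markers was higher. In bulk RNA, fewer cells of a type and less RNA per cell cannot be told apart.

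The unnamed spliced loci were short and had few exons. Their median span was 7907 bases (quartiles 3246.5 and 22831) against 20295 bases for the 20006 named spliced loci and 1196 bases for the unnamed single-exon loci. Counted in the transcript with the most exons, the median number of exons was 2 against 7 in named spliced loci. By this count 226 loci had 2 exons, 71 had 3, 26 had 4 and 47 had 5 or more. A single intron was all that 200 of the loci held. Introns had a median of 1862 bases and ran from 50 to 277540 bases, and 31 were longer than 100 kb.

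The share of the span covered by exons varied widely, and in 68 of the 370 loci it was under 10%. The median share of the span inside exons was 49.8%, against 15.6% in named spliced loci, and 93 of the 370 (25.1%) had 90% or more of their span in exons, against 1.16% of named spliced loci. In 27 loci the longest intron had at most 150 bases. XLOC_011126, inside the span of *Lsamp*, is of this form: exons covered 16276 of its 16420 bases and its only intron had 144.

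By level, the unnamed spliced loci stood between the named spliced and the unnamed single-exon loci. Their median level was 1.49 FPKM (fragments scaled to transcript length and to library size, so that loci can be compared), against 4.03 for named spliced and 0.961 for unnamed single-exon loci. A mean of at least 1 FPKM was reached by 257 of the 370 (69.5%), against 63.6% of named spliced and 47.5% of unnamed single-exon loci. At 10 FPKM or more there were 9. The most abundant, at 38.0 FPKM, was matched or exceeded by 1575 named spliced loci. No value was missing or marked as failed, and 363 of the 370 had at least 1 fragment in every library. Named loci come from the annotation whether or not they are transcribed here, while an unnamed locus needs reads to be assembled, so the low ends of these distributions are not set by the same rule.

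**Figure D1:**
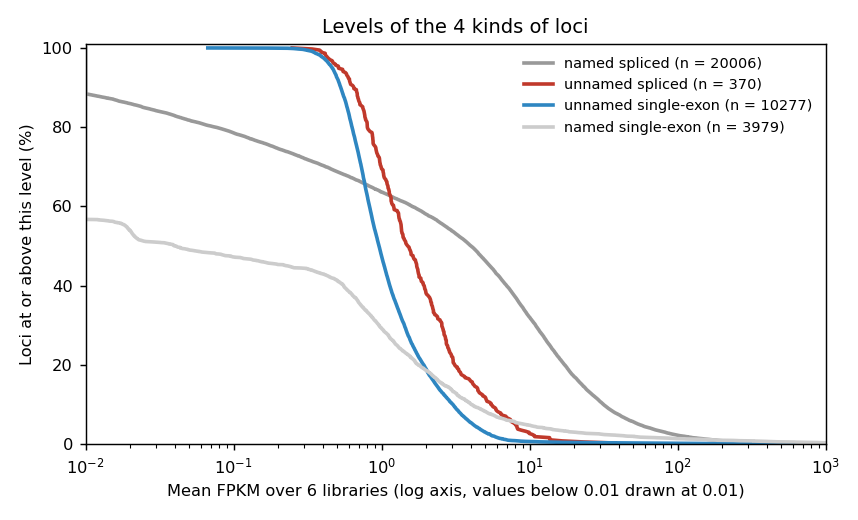
Share of loci (%) at or above each mean FPKM over the 6 libraries, on a log axis, for the 4 kinds of loci. The curve of the 370 unnamed spliced loci crosses 1 FPKM at 69.5%, above the 63.6% of named spliced loci, and then falls more steeply, with 9 loci at 10 FPKM or more.

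Together the 370 loci held 0.471%, 0.487% and 0.492% of all fragments in control libraries 1 to 3 and 0.484%, 0.490% and 0.514% in cKO libraries 1 to 3. The groups overlapped, with means of 0.483% ± 0.0107 in control and 0.496% ± 0.0161 in cKO (SD, n = 3). The 10 loci with the most fragments held 37.9% of these fragments. The unnamed single-exon loci held more, 3.56% ± 0.0817 in control and 3.62% ± 0.171 in cKO libraries.

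The locus with the most fragments, XLOC_025597 at chr6:31096032-31220300 on the minus strand, shared all 6 of its introns with *Lncpint*, a long intergenic non-coding RNA induced by p53. It had 6374, 6742 and 6984 fragments in control and 6160, 6982 and 8035 in cKO libraries, at a mean of 16.6 FPKM. The highest library was cKO 3 and the lowest was cKO 1, so the genotypes overlapped (log2 fold change of cKO over control 0.08 ± 0.06 SE, adjusted p = 0.90).

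Second in fragments was XLOC_000570 at chr1:137898593-137965460 on the plus strand, which shared an intron with the non-coding gene *Gm4258* and ended 97 bases before the named locus of *Mir181a-1* and *Mir181b-1*. The microRNAs of the miR-181 family are expressed in brain and in developing lymphocytes. Their 5′ arms begin 1007 and 1189 bases after the end of the unnamed locus, on the same strand, and share a seed (bases 2 to 8, in capitals).
mmu-miR-181a-5p: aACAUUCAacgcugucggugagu
mmu-miR-181b-5p: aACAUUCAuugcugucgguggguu

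XLOC_026245 at chr6:126548331-126582429 lay 12776 bases from *Kcna5*, which codes for a voltage-gated potassium channel, and shared 4 of 5 introns with the lincRNA *Gm45869*. It had 2142, 2459 and 2409 fragments in control and 2503, 2327 and 2642 in cKO libraries. XLOC_024988 at chr6:80184246-80222787 lay 151191 bases from *Lrrtm4*, the gene of a synaptic adhesion protein, and overlapped *Gm44228*, a gene that GENCODE lists as still to be checked by experiment. It had 2007, 2297 and 2578 fragments in control and 2214, 2589 and 2669 in cKO libraries. In both, the genotypes overlapped and neither was called (adjusted p = 0.86 and 0.77).

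Per length the highest level belonged to XLOC_023359 at chr5:129844729-129846905, whose 3 exons shared both introns with transcripts that GENCODE gives to *Cct6a*, a subunit of the cytosolic chaperonin. It was at 36.5, 39.0 and 39.0 FPKM in control and 39.5, 35.9 and 37.9 FPKM in cKO libraries. Its nearest named locus was *Sumf2*, 85 bases away on the same strand, while the named *Cct6a* locus lay 50229 bases upstream. XLOC_011071, the first of 4 loci in *Lsamp*, followed at 23.3 FPKM, and XLOC_025597 at 16.6 and XLOC_000570 at 13.7 FPKM were also among the 6 highest. XLOC_005919 at chr12:17881720-18338956, with a mean of 13.7 FPKM, overlapped the pseudogene *Gm49329* and varied most among these 6, from 5.27 to 18.9 FPKM over the 6 libraries. Its fragments varied less, from 118 to 220 (9.67 to 16.9 CPM), and the assembly gave it 9 transcripts. Control library 1 and cKO library 1 had 9.67 and 11.1 CPM, but 5.27 and 12.5 FPKM. XLOC_008132 was the 5′ part of *Rasgrf2*, a guanine nucleotide exchange factor for Ras, with 9 of 9 introns shared, and ran from 11.5 to 14.7 FPKM.

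The loci named for their exon number shared introns with annotated genes, but to unlike degrees. XLOC_029288 had up to 25 exons, and 32 of its 37 introns were those of *Cfap46*, a gene of the ciliary axoneme. XLOC_018905 had 21 exons with 19 of 23 introns in *Dchs2*, which codes for a protocadherin. XLOC_028573 had 16, as had XLOC_027722, and only 1 of its 20 introns was in GENCODE, in *A230006K03Rik*. The longest spans were those of XLOC_027219 (846309 bases, overlapping the lincRNA *Gm32647*), XLOC_016373 (783028 bases, all 3 introns in *Lrrc4c*, a ligand of netrin-G) and XLOC_019471 (751132 bases, with 12 of 15 introns in *Naaladl2*). In these 3 loci exons made up 4775, 8231 and 6905 bases.

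The distance to the nearest named locus had a median of 6137 bases, and 45 loci overlapped a named locus. In 72 loci (19.5%) the nearest named locus lay on the opposite strand within 5 kb, with the start of the unnamed locus facing the start of the named one. The median gap of these 72 was 205 bases, and in 47 it was under 500 bases. A further 28 loci overlapped a named locus on the opposite strand, 23 of them with shared exon bases, and 17 overlapped one on the same strand. On the same strand, 21 lay within 5 kb upstream and 24 within 5 kb downstream. The other 14 of the near loci lay downstream on the opposite strand. Far from any name were 97 loci at 5 to 50 kb and 97 at more than 50 kb. The libraries were made with a stranded kit, and 10266 of the 10277 unnamed single-exon loci carried a strand in the assembly. Whether the counting used strand was not stated. If it did not, fragments in the 23 loci with antisense exons cannot be told apart from those of the named gene.

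**Figure D2:**
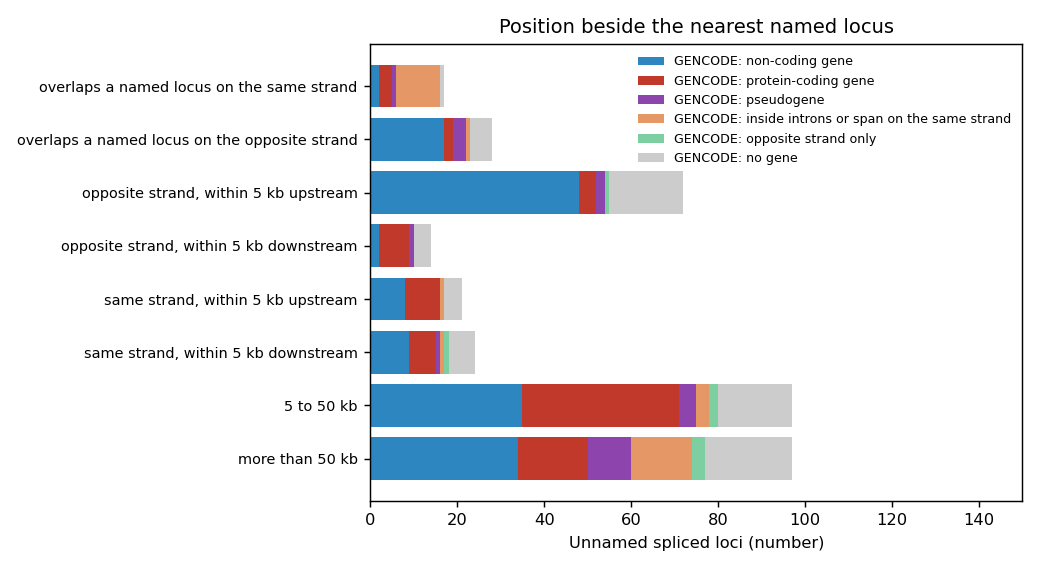
Number of unnamed spliced loci in each of 8 classes of position beside the nearest named locus, with colours for what GENCODE M21 has at the locus. The 72 head-to-head loci form the largest class within 5 kb, and 48 of them share sequence with a non-coding gene.

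Among the head-to-head loci, 48 shared an intron or exon bases with a non-coding gene of GENCODE, 4 with a protein-coding gene and 2 with a pseudogene, and 17 met no GENCODE gene. The unnamed partner was the weaker one in most pairs: its level was a median of 11.5% of that of the named locus, and in 5 of the 72 it was higher. These 5 were XLOC_025597 (16.6 FPKM against 9.34 FPKM for the locus of 2210408F21Rik and *Gm13845*), XLOC_014089 (6.41 against 4.74 FPKM for *Spry4*, an inhibitor of receptor tyrosine kinase signalling), XLOC_021364 (1.204 against 0.599 FPKM for the serotonin receptor gene *Htr6*), XLOC_008106 (1.65 against 0.122 FPKM for *9330111N05Rik*) and XLOC_014246 (0.547 against 0.152 FPKM for *A530050N04Rik*). The 5 were chosen after their values were seen.

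**Figure D3:**
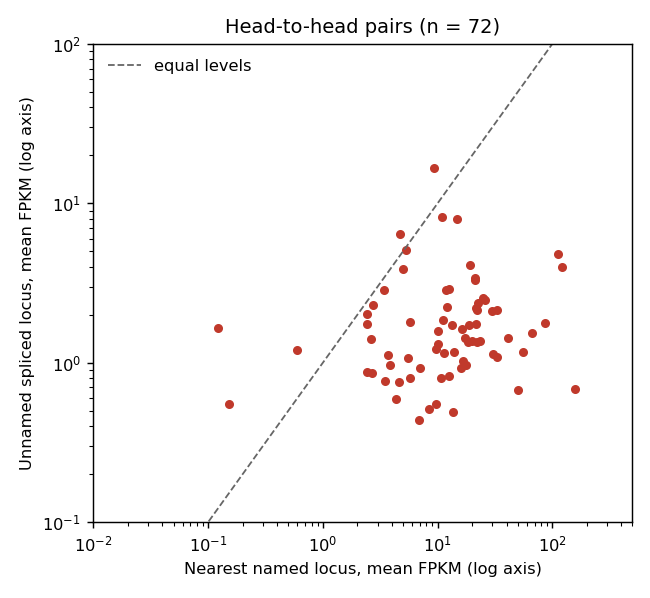
Mean FPKM of each of the 72 unnamed loci (vertical log axis) against that of the named locus it faces (horizontal log axis). The dashed line marks equal levels, and 5 points lie above it.

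For 49 of the 72 loci a RefSeq promoter (GRCm38.p6) on the opposite strand could be matched by position, and in 19 the unnamed transcript began within the 250 bases before the RefSeq start. The windows of *2210408F21Rik* and *Anks3*, which codes for an ankyrin repeat protein, are shown, each 250 bases long on the strand of the named gene, with capitals for the bases that lie within the unnamed locus.
2210408F21Rik, chr6:31220101-31220350, plus strand, 200 bases within XLOC_025597: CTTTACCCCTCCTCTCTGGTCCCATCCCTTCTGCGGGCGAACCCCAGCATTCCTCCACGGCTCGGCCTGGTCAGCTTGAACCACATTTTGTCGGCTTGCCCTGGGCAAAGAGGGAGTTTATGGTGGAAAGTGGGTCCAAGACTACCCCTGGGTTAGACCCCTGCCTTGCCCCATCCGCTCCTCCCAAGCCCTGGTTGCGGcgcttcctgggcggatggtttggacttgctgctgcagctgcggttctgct
Anks3, chr16:4964238-4964487, minus strand, 98 bases within XLOC_010806: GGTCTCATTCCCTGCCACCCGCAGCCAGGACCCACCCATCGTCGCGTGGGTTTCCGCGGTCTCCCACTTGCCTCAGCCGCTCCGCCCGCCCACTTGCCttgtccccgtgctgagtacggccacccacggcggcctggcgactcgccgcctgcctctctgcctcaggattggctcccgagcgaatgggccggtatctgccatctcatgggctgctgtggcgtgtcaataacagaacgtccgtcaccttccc

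The 49 promoters were rich in CG. Over 300 bases (250 before and 50 after the start) they held a median of 26 CG dinucleotides and 65.7% G or C, against 7 and 52.7% over all 32851 RefSeq promoters. On either strand, the letters GGGCGG was found in 75.5% of them against 35.7% of all, CCAAT in 51.0% against 37.4%, and TATAAA in 10.2% against 13.6%. None of these 3 motifs contains another. A match is a description of the letters only, and all RefSeq promoters include those of genes not transcribed in this tissue.

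GENCODE M21 covered most of the loci that the assembly left without a name. An intron was shared by 188 of the 370, and another 71 shared exon bases on the same strand. A whole transcript with every intron matched a GENCODE transcript in 76. Of the 259 with shared sequence, 82 were matched to protein-coding genes, 74 to lincRNAs, 36 to processed transcripts and 26 to antisense RNAs. A further 30 lay inside the span of a gene on its strand without sharing an exon, 7 met a gene on the opposite strand only, and 74 met none. Loci without a GENCODE gene had a median of 1.04 FPKM against 1.63 FPKM for those on non-coding genes and 1.72 FPKM for those on protein-coding genes. The 3 with the most fragments among the 74 had as nearest named loci those of *Robo2* (XLOC_011970), *Kazn* (XLOC_022386) and *Slitrk1* (XLOC_009422), with means of 995, 765 and 707 fragments. Each had 2 exons that filled nearly all of its span. These 3 were named after their values were seen.

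In 46 loci the GENCODE gene was one whose name stood on a separate locus of the assembly, on the same strand, so that the gene was counted in pieces. The 46 belonged to 41 genes, and 38 of the 46 to protein-coding ones. Of the 46, 25 lay on the 5′ side of the named piece, 20 on the 3′ side and 1 overlapped it. The gap between the pieces had a median of 35811 bases and reached 1268119 bases, in *Lsamp*. In 10 of the 46 the unnamed piece had the higher level per length, such as in *Frmd4a* (6.92 against 3.61 FPKM) and *Jakmip3* (9.94 against 8.44 FPKM). *Lsamp* was at 57.2 FPKM in its named locus, and the 4 unnamed loci within its span were at 23.3, 5.65, 4.84 and 5.06 FPKM from 5′ to 3′. The locus at 5.65 FPKM, XLOC_011126, shared no intron or exon with the gene and is not among the 46. The fragments of XLOC_011071 (413 to 512 per library), XLOC_011126 (1057 to 1234), XLOC_011143 (426 to 570) and XLOC_011157 (1457 to 1679) were counted apart from the named locus.

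The loci also lay in groups. With gaps of up to 200 kb, 10 groups held 3 or more, 33 held 2, and 269 loci stood alone. A group of 5 on the minus strand of chromosome 7, at chr7:60892188-61311706, lay upstream of the *Snrpn* and *Snurf* locus and on its strand. This locus belongs to the imprinted region of Prader-Willi and Angelman syndrome, where long non-coding RNA is transcribed from the paternal chromosome in neurons. XLOC_028573 was its strongest member by fragments, with 924, 997 and 1169 in control and 1003, 1199 and 1305 in cKO libraries. XLOC_028559, the nearest to *Snrpn* at 21509 bases, had 477, 486 and 576 fragments in control and 534, 611 and 590 in cKO libraries. The log2 fold changes of these were 0.18 ± 0.07 and 0.18 ± 0.07 (SE) with adjusted p of 0.58 and 0.54, while those of the 3 others were 0.07, 0.06 and -0.10. Without cKO library 3, XLOC_028573 was at 0.10. A group of 5 at chr5:123133206-123344400 held 3 successive pieces of *Setd1b*, a histone methyltransferase, beside *AI480526* and *Gm15860*. In a group of 4 on chromosome 8, inside the span of *Nrg1*, the gene of the growth factor neuregulin, none shared an exon with the gene.

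The comparison of genotypes covered 303 of the 370 loci, those that passed the filter on low counts. The 67 that did not had a median of 6 fragments per library. No unnamed spliced locus was called at an adjusted p under 0.05, of 303 tested, against 0.531% of all 21854 loci tested (116 called, 0.503% lower and 0.0275% higher in cKO). DESeq2, which called 118 loci in all, also called none of the 303, with 12 at an unadjusted p under 0.05. Limma on FPKM called 0 or 1 of all loci by pseudocount and therefore says nothing about these loci in particular. Of the 264 it covered, 11 had an unadjusted p under 0.05. For DESeq2 and limma the share of all loci at this unadjusted threshold is not given here, so these counts stand without a background. By edgeR there were 17 at an unadjusted p under 0.05 (5.61%), against 6.94% of all loci tested. Of these, 6 were lower (1.98%, against 4.03%) and 11 higher (3.63%, against 2.91%). The values of the 6 libraries did not overlap between genotypes in 37 loci (12.2%), beside 12.2% of all loci tested. In 12 of these all cKO libraries were lower (3.96%, beside 6.54% of all) and in 25 all were higher (8.25%, beside 5.61%).

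Changes were small. Log2 fold changes ran from -1.31 to 0.68 with quartiles of -0.09 and 0.18, and 1 locus passed 1 in size. Their median was 0.05, against 0.00 over all loci tested, 0.00 over named spliced and 0.05 over unnamed single-exon loci. In 193 of 303 (63.7%) the value was above 0, against 51.4% of all loci tested and 57.6% of unnamed single-exon loci. The excess varied with single libraries. It was 179 of 313 (median 0.03) without cKO library 3 and 182 of 315 (median 0.03) without control library 1. Without cKO library 1 it was 202 of 316 (median 0.08). No test was made of this share, and the levels of cerebellar markers given above moved with genotype; their part in it was not tested. The median standard error was 0.19 over the 303. For the 97 loci with a mean of 100 fragments or more it was 0.09, and their log2 fold changes lay between -0.35 and 0.38.

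**Figure D4:**
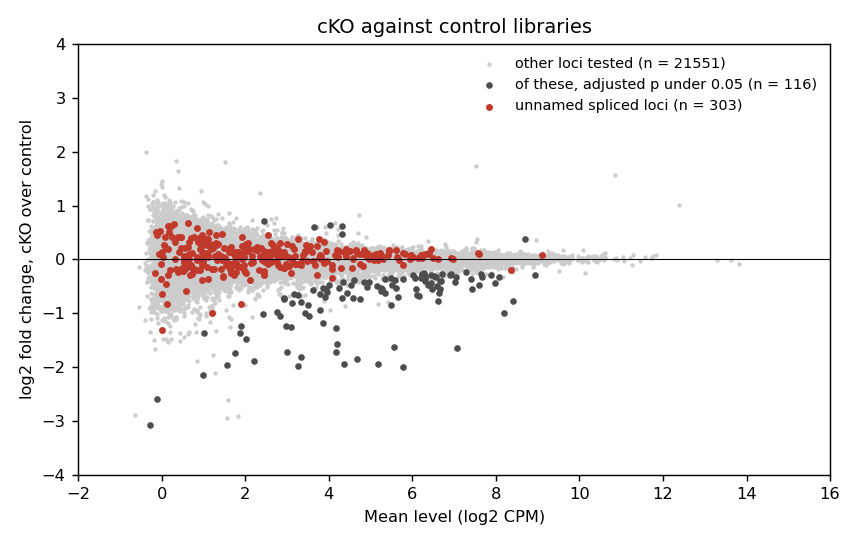
Log2 fold change of cKO over control against mean log2 CPM for all 21854 loci tested, with the 303 unnamed spliced loci in red and the 116 called loci in dark grey. The red points spread around 0, and none is among the called loci.

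The smallest adjusted p belonged to XLOC_000570, the locus upstream of the miR-181 pair. It had 4309, 4069 and 4726 fragments in control and 3876, 3848 and 3734 in cKO libraries. All 3 cKO libraries were below all 3 controls (347 ± 13.8 against 305 ± 16.4 CPM, SD, n = 3), with a log2 fold change of -0.19 ± 0.05 (SE) and an adjusted p of 0.136. Without the library labelled cKO 1, which had the high *Hoxa5* count and almost no Y-linked RNA, the log2 fold change was -0.24 with an adjusted p of 0.0112. XLOC_000570 was then the only unnamed spliced locus called, of 316 tested, in a fit that called 121 over all loci. Without the library labelled control 3, which had the low *Hoxa5* count, its log2 fold change was -0.17 with an adjusted p of 0.416. In that fit none of 314 unnamed spliced loci tested was called, with 126 calls over all loci. Over all settings tried its adjusted p ran from 0.0112 to 0.751. On the FPKM scale the genotypes overlapped, at 15.7, 14.1 and 14.4 in control and 12.5, 14.3 and 11.2 FPKM in cKO libraries. The named *Mir181a-1* and *Mir181b-1* locus had a log2 fold change of -0.18 ± 0.13 (adjusted p = 0.89).

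By the naming rule, 4 falls and 4 rises were named from loci with an unadjusted p under 0.05 and no overlap between genotypes, so that their separation is part of how they were chosen. None passed the adjusted threshold.

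The deepest fall was in XLOC_019397, a locus of 331 bases with 18, 16 and 11 fragments in control and 2, 6 and 10 in cKO libraries (log2 fold change -1.31 ± 0.46, adjusted p = 0.46). Its level of 8.80 FPKM rests on these few fragments over a short transcript. XLOC_003533, 10 bases from the predicted gene *Gm11985* on the opposite strand, had 46, 33 and 29 fragments against 12, 19 and 23 (log2 fold change -0.999 ± 0.284, adjusted p = 0.21). Neither locus met a gene of GENCODE.

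XLOC_002493 lies antisense to *Trhde*, the gene of the enzyme that degrades thyrotropin-releasing hormone, and shared an intron with the antisense RNA *Gm15723*. It had 77, 45 and 48 fragments in control and 26, 32 and 38 in cKO libraries, 4.53 ± 1.54 against 2.54 ± 0.422 CPM. Its log2 fold change was -0.82 ± 0.24 (adjusted p = 0.23), or -0.52 without control library 1, its highest. *Trhde* on the other strand was at -0.30 ± 0.08 (adjusted p = 0.17). XLOC_031330 shared 2 of 5 introns with the lincRNA *C230057M02Rik* and lay 22813 bases from *Acsf3*, which codes for a mitochondrial acyl-CoA synthetase. With 228, 238 and 241 fragments against 157, 195 and 201 it was the best measured of the 4 falls (log2 fold change -0.35 ± 0.10, adjusted p = 0.17), while *Acsf3* was at 0.01 ± 0.09.

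The largest of the rises was in XLOC_007612, with 8 of 9 introns in *BC067074* (63, 56 and 61 fragments against 67, 81 and 99, log2 fold change 0.46 ± 0.16, adjusted p = 0.46). XLOC_027441, with 2 of 3 introns in the dynein-related gene *Dnhd1*, had 37, 38 and 43 fragments in control and 46, 65 and 46 in cKO libraries (log2 fold change 0.41 ± 0.19, adjusted p = 0.70), and was at 0.26 without cKO library 2, its highest. The other 2 rises were in loci with a mean of over 100 fragments per library. XLOC_002404 lay in the 5′ part of *Tmcc3*, which codes for a transmembrane protein, and shared exon bases with it, but its only intron was not in GENCODE. It had 118, 159 and 164 fragments against 210, 175 and 187 (log2 fold change 0.38 ± 0.13, adjusted p = 0.40). On the FPKM scale its genotypes overlapped, at 1.37, 1.80 and 1.66 in control and 2.49, 1.79 and 2.00 in cKO libraries. The named *Tmcc3* locus, 132773 bases downstream, was at -0.02 ± 0.06. XLOC_013226, which overlapped the named locus of *Gm4944* and the zinc finger gene *Zfp947* on its strand, so that reads could be split between them, had 100, 99 and 110 fragments in control and 138, 115 and 147 in cKO libraries (log2 fold change 0.38 ± 0.13, adjusted p = 0.43).

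**Figure D5:**
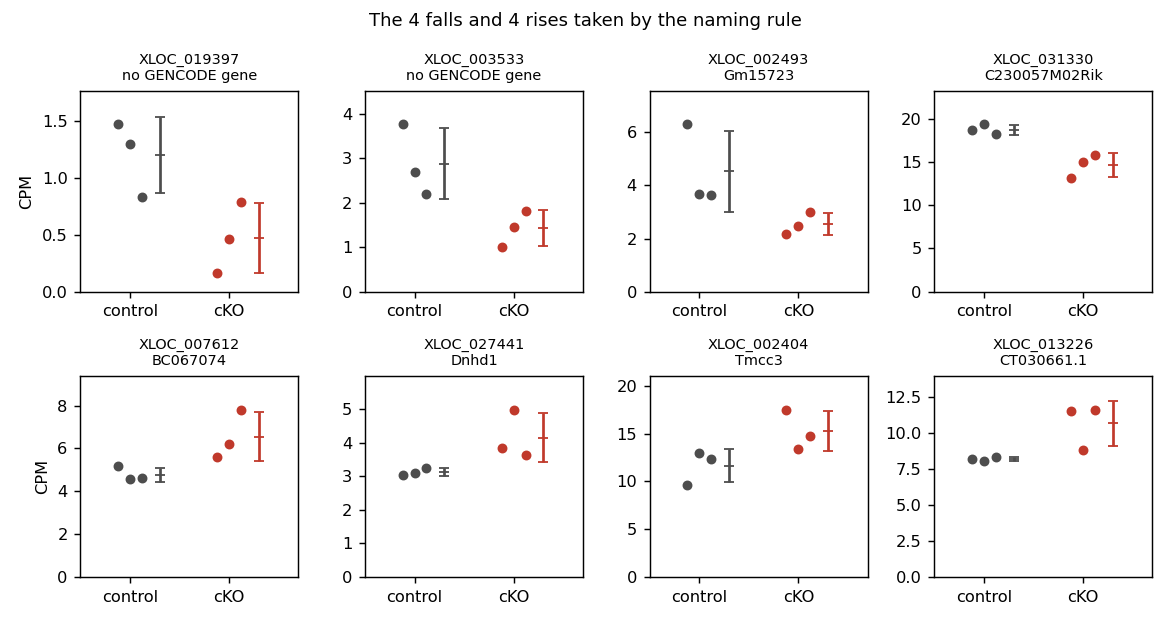
CPM of the 4 falls and 4 rises in each control (grey) and cKO (red) library, with the mean and SD (n = 3) beside the points. Vertical axes start at 0 and differ between panels, and the libraries do not overlap because the loci were chosen so.

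The unnamed loci were set beside their nearest named loci in the same fit, from the same libraries. The 370 had 329 different nearest named loci, of which 287 were tested and none was called, beside 0.531% of all 21854 loci tested (116 called). Over the 270 pairs with both loci tested, the rank correlation of their log2 fold changes was 0.10, given as a description, since pairs share libraries and some share a neighbour. For the 63 head-to-head pairs it was 0.12. For the 20 loci downstream of a gene on the same strand it was 0.56, and for the 15 that overlapped a named locus on the same strand it was -0.57; both rest on few pairs.

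Pieces of the same gene were compared in the same way. In 32 pairs both were tested, with a rank correlation of 0.16 (a description over loci that share libraries), and in 7 the log2 fold changes differed by more than 0.25, *Tmcc3* among them. Apart from *Tmcc3*, the unnamed pieces of these 7 were poorly measured. Their means ran from 13.8 (*Fgf13*) to 35.8 fragments (*Immp2l*), with SEs of 0.22 to 0.37. For *Lrrc4c* the pieces XLOC_016373 and XLOC_016490 were at 0.01 and 0.03 and the named locus at 0.08, with SEs of 0.07, 0.05 and 0.05. For *Dlg2*, the gene of a postsynaptic scaffold protein, XLOC_027105 was at 0.12 ± 0.05 and the named locus at -0.01 ± 0.04. XLOC_027105 had 1017, 966 and 1074 fragments in control and 1026, 1162 and 1123 in cKO libraries. None of these differences between pieces was tested.

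By position, the median log2 fold change ran from -0.14 in the 7 tested loci downstream of a gene on the opposite strand to 0.10 in the 23 that overlapped one on the opposite strand. It was 0.05 for the 66 head-to-head loci, 0.07 for the 74 at 5 to 50 kb and 0.07 for the 82 farther away. The 2 tested loci farthest from any name were XLOC_027172, 1231525 bases from *Fam181b*, and XLOC_011126 in *Lsamp*, 1196529 bases from the named piece. XLOC_027172 lay inside the span of the GENCODE lincRNA *Gm32647* on its strand, and had 47, 61 and 82 fragments against 73, 70 and 67. XLOC_011126 had 1072, 1062 and 1234 against 1057, 1229 and 1149. In both the genotypes overlapped.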

How the data were processed

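RNA-Seq of 6 brainstem libraries was analysed. According to the submitters' processing notes the authors used CASAVA 1.6, TopHat2 2.0.9, Cufflinks 2.2.0 and Cuffdiff with build mm10. The authors deposited a merged assembly and, for each locus and library, raw fragment counts and FPKM. Columns of scaled fragments were not used. FPKM of a locus with several transcripts adds up its transcripts, so it depends on how the assembly split them.

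Counts were normalized by TMM, filtered by filterByExpr and compared by edgeR 4.0.16 (quasi-likelihood, Benjamini-Hochberg over 21854 loci, R 4.3.3). Alternatives were DESeq2 1.42.0, limma 3.58.1 on log2(FPKM + 1) and log2(FPKM + 0.1), other scaling and filters, each library left out, and a replicate block. Replicate numbers are names only. Of 20950 loci with 1 name, 98.5% overlapped that GENCODE M21 gene. Pools are the replicates, and p-values set the difference between genotypes against the spread between pools, not between animals.

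The loci, marker lists and naming rule were chosen with earlier results of these data known. The rule took called loci, 4 falls and 4 rises, the highest in FPKM, fragments, exons and span, and the 2 farthest.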

Additional observations from a re-analysis of the deposited data

How the results depend on the processing

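Calls of unnamed spliced loci stayed at 0 in both directions under DESeq2 (118 calls over all loci), library size alone (142), upper-quartile factors (114) and a filter of 50 fragments in 3 libraries (76). Limma on log2(FPKM + 1) and log2(FPKM + 0.1) called 0 and 1 of all loci, so its 0 among these loci carries no weight. There was 1 lower call with no filter on low counts (221 over all loci), and 0 to 1 lower calls with 1 library left out (44 to 126 over all loci). The call without control replicate 2 and that without the filter were both of XLOC_021283, which the filter removes: it had 17, 4 and 14 fragments in control and 1, 2 and 1 in cKO libraries, with log2 fold changes of -3.41 and -3.01 (adjusted p = 0.0255 and 0.0381) and adjusted p of 0.161 to 0.3002 in the 3 fits that left out a cKO library. It was singled out after its values were seen. The call without cKO replicate 1 was of XLOC_000570 (-0.24). The replicate block, for numbers that share only a name (correlations of same-numbered deviations 0.0361, -0.0935 and 0.0441), gave 0 calls (130 over all loci). All these fits left the median of all loci tested within 0.02 of 0.

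Of the 24 named loci, 17 kept their direction in every fit and 7 turned; none of the 7 was called in any fit. XLOC_023359 (0.0053) and XLOC_027219 (0.0057) turned with upper-quartile factors, XLOC_016373 (-0.0059 and -0.0064) and XLOC_019471 (0.12 and 0.14) on the FPKM scales. With 1 library left out, ranges were -0.054 to 0.038 for XLOC_023359, -0.022 to 0.13 for XLOC_025597, -0.025 to 0.15 for XLOC_008132, -0.20 to 0.21 for XLOC_027219, -0.047 to 0.042 for XLOC_016373 and -0.0051 to 0.33 for XLOC_027172. The causes were not tested.

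Without the 10 loci with the most fragments the share of fragments was 0.299% in control and 0.309% in cKO, and with 1 library left out 0.479% to 0.489% and 0.487% to 0.502%. The median distance to a name became 33924 bases on the same strand and 0 bases to RefSeq genes, 310 loci overlapping one. The splice-site letters of the introns, and their share in loci that passed the filter, were not run. The median standard error of a log2 fold change was 0.19 over the 303 loci tested and 0.09 over the 97 with a mean of at least 100 fragments.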
